A study of Mus musculus with 6 samples.

Results

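Immune checkpoint ligands are molecules by which a tumour cell restrains T cells and natural killer cells, and 10 genes of this kind were followed here in cultured mouse tumour cells. They were taken by symbol from a table of 22105 genes with an identifier: Cd274, Pdcd1lg2, Cd276, Vtcn1, Pvr, Nectin2, Lgals9, Nt5e, Ceacam1 and Ido1, and all 10 were present. The cells were 4T1, an established mouse mammary carcinoma line, and the labels give them no transgene, deletion or other allele. In 1 group, 3 samples had received CM-PEG-PLGA@DOX/R848 nanoparticles for 24 h, dosed to carry the equivalent of 2 µg/mL DOX, and in the other, 3 samples had received phosphate-buffered saline (PBS) for the same time. PLGA is a biodegradable polyester, PEG a polymer coat and R848 a small-molecule agonist of Toll-like receptors; the labels explain neither CM nor the dose of R848. As both groups differ in the whole particle, contributions of DOX, R848 and carrier cannot be told apart.

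PD-L1 and PD-L2, the products of Cd274 and Pdcd1lg2, bind PD-1 on T cells and dampen signalling from the T cell receptor. B7-H3 (Cd276) and B7-H4 (Vtcn1) belong to the same B7 family, while the poliovirus receptor (Pvr) and Nectin-2 (Nectin2) are adhesion molecules shared between the inhibitory receptor TIGIT and the activating receptor CD226. Galectin-9 (Lgals9) binds sugars on TIM-3 among other partners, and CEACAM1 (Ceacam1) binds copies of itself on other cells. CD73 (Nt5e) and indoleamine dioxygenase (Ido1) act as enzymes: the first makes adenosine outside the cell, the second degrades tryptophan to kynurenine. PD-L1 transcription is known to respond to interferons through JAK kinases, STAT factors and IRF1.

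RNA abundance was measured by mRNA sequencing, as FPKM (fragments scaled by transcript length and library size), so that levels can be set side by side between genes. The summed FPKM of a library was 421544 to 425231 with PBS and 468387 to 472870 with nanoparticles. Between 13544 and 13808 genes were above 0 with PBS and between 18319 and 18509 with nanoparticles, whereas genes at 1 FPKM or more numbered 10596 to 10631 in every library. Read depth is unknown, since the values hold no counts. Correlation of log2(FPKM + 1) across genes was 0.9956 to 0.9969 within a group and 0.8617 to 0.8649 between groups. Of the 4T1 cell's epithelial markers, the keratins Krt7 (53.8 ± 1.19 and 71.6 ± 1.38 FPKM), Krt8 (215 ± 2.58 and 343 ± 0.924 FPKM) and Krt18 (514 ± 6.33 and 685 ± 22.7 FPKM) were abundant with PBS and with nanoparticles; here and throughout, ± gives the SD with n = 3 per group. A list of 10 such markers summed to 822 to 835 FPKM with PBS, against 1126 to 1167 FPKM with nanoparticles. Of its 6 genes tested as described below, 5 were called higher and 1 lower. The lower one, Cldn3, went from 24.7 ± 1.28 to 17.0 ± 0.780 FPKM. Epcam, an epithelial adhesion gene, was under 1 FPKM in all 6 libraries, and Krt5 was at 0 in every PBS library.

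Of the 10 checkpoint ligand genes, 6 reached the level at which a test was made (1 FPKM in at least 3 libraries), and each of these 6 was above 1 FPKM in all 6 libraries. The test was limma's moderated test on log2(FPKM + 1) with Benjamini-Hochberg adjustment over 10863 genes, and a gene was called at an adjusted p under 0.05. With nanoparticles, 3 members were called higher (Lgals9, Cd274 and Pvr), 2 were called lower (Nt5e and Cd276) and 1 was not called (Nectin2). The contrast moved most of the transcriptome: 86.4% of all tested genes were called, 40.5% higher and 46.0% lower, so 5 calls among 6 members are near the background. All 3 higher members and 1 of the lower ones changed at least 2-fold, which 10.2% of tested genes did upward and 13.5% downward. The median log2 fold change was 0.48 over the 6 members and -0.06 over all tested genes. Nothing in the labels says that samples of a group were separate cultures, so the p-values reflect sample-to-sample spread alone, which may be technical. In bulk RNA, fewer cells of a kind and less RNA per cell cannot be told apart.

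**Figure D1:**
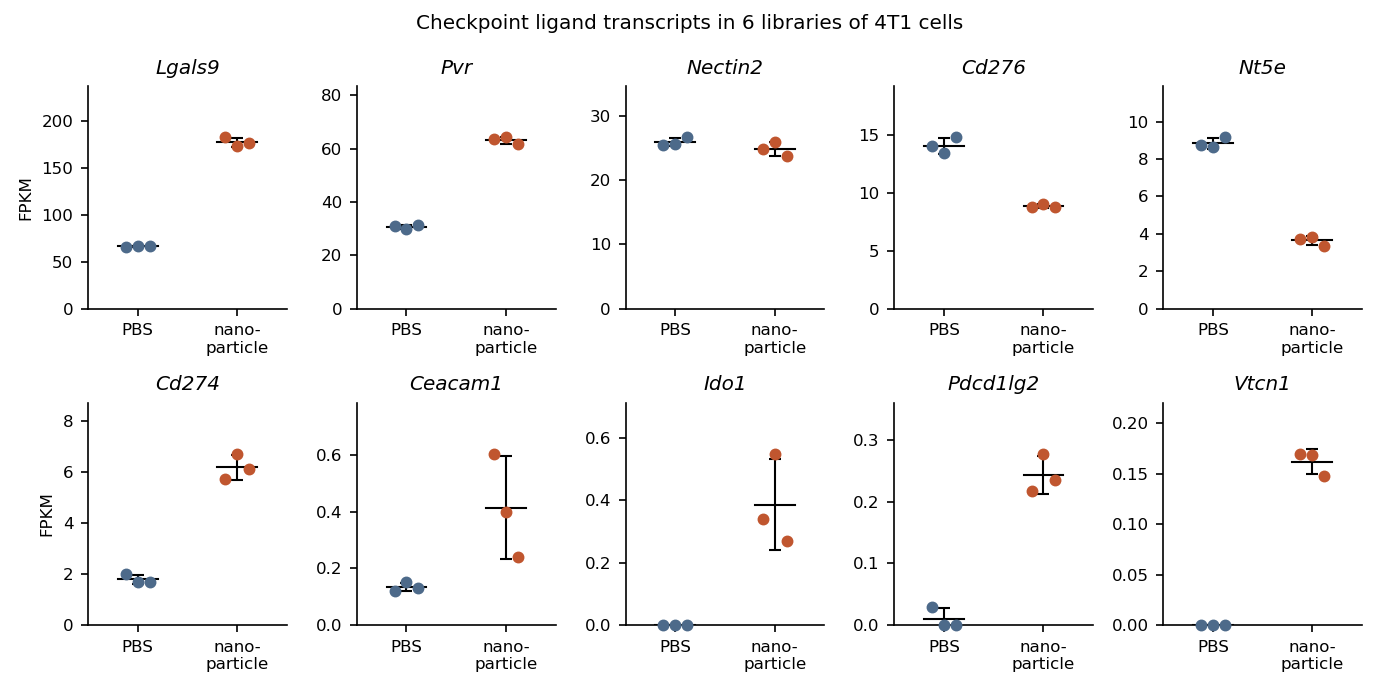
FPKM of the 10 checkpoint ligand genes in each of the 3 PBS and 3 nanoparticle libraries, with the group mean as a line and the SD as an error bar, each panel on its own linear axis from 0. Nectin2 is the member whose groups overlap, and Vtcn1 and Ido1 lie at 0 in every PBS library.

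Cd274 and Lgals9 were the tested members with the greatest ratio of means, and both carry a match to the interferon-response element core within 250 bases upstream of the annotated start. Promoter windows from RefSeq (GRCm38.p6) were found for 8 of the 10 members, Pvr and Ido1 being without an entry. Stretches of these windows that lie outside annotated untranslated regions are shown for both rising genes, for Pdcd1lg2, which neighbours Cd274, and for Nectin2, which was not called. They read 5′ to 3′ on the gene's own strand, and capitals mark motif matches.
Cd274, chr19:29367309-29367437, plus strand: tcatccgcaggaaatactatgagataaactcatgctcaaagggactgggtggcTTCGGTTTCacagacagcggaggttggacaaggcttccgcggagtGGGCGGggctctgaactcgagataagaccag
Pdcd1lg2, chr19:29410669-29410918, plus strand: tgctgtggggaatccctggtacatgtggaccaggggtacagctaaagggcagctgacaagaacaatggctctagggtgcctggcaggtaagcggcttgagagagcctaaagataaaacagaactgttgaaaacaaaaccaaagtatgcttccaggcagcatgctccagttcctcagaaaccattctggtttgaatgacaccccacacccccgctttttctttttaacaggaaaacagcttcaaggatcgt
Lgals9, chr11:78984947-78985174, minus strand: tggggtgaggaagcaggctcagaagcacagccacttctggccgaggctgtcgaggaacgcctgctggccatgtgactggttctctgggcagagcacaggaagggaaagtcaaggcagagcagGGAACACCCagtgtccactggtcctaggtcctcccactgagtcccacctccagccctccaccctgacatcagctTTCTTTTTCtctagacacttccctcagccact
Nectin2, chr7:19749574-19749823, minus strand: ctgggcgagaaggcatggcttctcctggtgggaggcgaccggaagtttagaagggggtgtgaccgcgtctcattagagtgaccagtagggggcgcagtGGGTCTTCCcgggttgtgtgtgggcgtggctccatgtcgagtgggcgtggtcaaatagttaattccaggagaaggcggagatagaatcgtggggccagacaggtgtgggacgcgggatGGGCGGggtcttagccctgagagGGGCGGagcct
The Cd274, Pdcd1lg2 and Nectin2 stretches end at the base before the RefSeq start, and that of Lgals9 ends 23 bases before it. The Nectin2 stretch lies within the longer GENCODE span of Nectin2 given below, outside its annotated exons. Part of the Cd274 stretch lies in the first exon of a non-coding transcript of Plgrkt, the gene that runs the other way.

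The motifs searched, on both strands, were the STAT site GAS (TTCNNNGAA), the core of the interferon-stimulated response element (GAAANNGAA), the NF-kB site (GGAANNNCC), the AP-1 site (TGANTCA), the E-box (CACGTG), the hypoxia-response core (ACGTG), which lies inside the E-box, and the GC box (GGGCGG). In Cd274 the response-element core stood 76 to 68 bases before the start as TTCGGTTTC, on the opposite strand, with a GC box 31 to 26 bases before it. In Lgals9 the same core, as TTCTTTTTC, stood 54 to 46 bases before the start, and an NF-kB match, GGAACACCC, 128 to 120 bases before it. That core was present in 2 of the 8 members, against 7.13% of 32851 promoter windows of the same length. Nectin2 held an NF-kB match (GGGTCTTCC, 152 to 144 bases before the start; 15.7% of all windows hold one) and 2 GC boxes (32.7% of windows). Cd276 held an NF-kB match and 3 GC boxes, Nt5e 4 GC boxes, some of these matches overlapping, and Ceacam1 an E-box (6.02% of windows) with the hypoxia-response core inside it (16.6% of windows). No window of a member held the GAS site (7.02% of windows) or the AP-1 site (6.75%), and those of Pdcd1lg2 and Vtcn1 held none of the letters searched. The windows of Cd276 and Nt5e lie within annotated exons and are not shown. Binding was not measured, and whether a motif has a part in any change was not tested.

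Cd274, which encodes PD-L1 (ENSMUSG00000016496, chr19:29367455-29388095, plus strand; this and the other gene spans are from GENCODE M21, GRCm38), was the lowest of the tested members with PBS. Its level was 1.99, 1.69 and 1.71 FPKM in the PBS libraries and 5.74, 6.72 and 6.13 FPKM in the nanoparticle libraries. All 3 nanoparticle libraries were above all 3 PBS libraries, and the means differed 3.45-fold. On the log2(FPKM + 1) scale, which understates changes of low genes, Cd274 rose by 1.36 (SE 0.074, 95% CI 1.20 to 1.53, adjusted p = 7.53e-08, limma, n = 3 each). With a pseudocount of 0.1 in place of 1 FPKM the log2 fold change was 1.73.

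Pdcd1lg2, the gene of PD-L2 (ENSMUSG00000016498, chr19:29410919-29471161, plus strand), starts 22.824 kb beyond the end of Cd274 and was far lower. It was listed at 0.0299, 0 and 0 FPKM with PBS, against 0.217, 0.278 and 0.234 FPKM with nanoparticles, under the level at which a test was made. On the other side, Plgrkt, a plasminogen receptor gene, lies 0.065 kb from Cd274 in the opposite orientation and went from 22.5 to 31.2 FPKM, a log2 fold change of 0.45 (limma, adjusted p = 1.69e-05). The nearest gene beyond Pdcd1lg2, Ric1, went from 4.75 to 2.13 FPKM, a log2 fold change of -0.88 (limma, adjusted p = 2e-06). These flanking genes, and those named further on, were added after the values had been seen: for each member, the nearest protein-coding gene on each side, given where it was tested.

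Of the other B7 members, Cd276, the B7-H3 gene (ENSMUSG00000035914, chr9:58524298-58555437, minus strand), was measured at 14.1, 13.4 and 14.8 FPKM with PBS, against 8.80, 9.05 and 8.82 FPKM with nanoparticles. The groups did not overlap, and the nanoparticle libraries lay closer together than the PBS ones. Cd276 fell by 0.61 on the log2 scale (SE 0.048, 95% CI -0.72 to -0.50, adjusted p = 1.08e-06, limma). Its ratio of means was 0.63, and against a change of 1.5-fold instead of none it was not called (adjusted p = 0.654, limma). Nptn, 26.803 kb from Cd276, had a log2 fold change of -0.84 (adjusted p = 1.33e-08, limma). Vtcn1, the B7-H4 gene (ENSMUSG00000051076, chr3:100825459-100896922, plus strand), was at 0 in all 3 PBS libraries and at 0.170, 0.168 and 0.148 FPKM in the nanoparticle libraries. Its flanking genes were Man1a2, with a log2 fold change of -1.74 (adjusted p = 6.48e-10, limma), and Trim45, which was not called (0.18, adjusted p = 0.0757, limma).

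Of the TIGIT ligands, Pvr rose and Nectin2 was not called. Pvr (ENSMUSG00000040511, chr7:19903578-19921160, minus strand) was present at 31.0, 29.8 and 31.3 FPKM with PBS, against 63.5, 64.3 and 61.8 FPKM with nanoparticles. It rose by 1.02 on the log2 scale (SE 0.032, 95% CI 0.95 to 1.09, adjusted p = 1.85e-09, limma), from 30.7 ± 0.810 to 63.2 ± 1.28 FPKM (SD, n = 3 each). Nectin2 (ENSMUSG00000062300, chr7:19716644-19750483, minus strand) stood at 25.5, 25.7 and 26.7 FPKM with PBS, against 25.0, 25.9 and 23.7 FPKM with nanoparticles. Its groups overlapped, and the log2 fold change was -0.06 (SE 0.041, 95% CI -0.15 to 0.03, adjusted p = 0.193, limma). Rescaled to TPM, where each library sums to the same total and the median of all tested genes moved from -0.0575 to -0.206, Nectin2 was called lower (log2 fold change -0.213, adjusted p = 0.00113, limma). Pvr amounted to 1.18 ± 0.031 times Nectin2 with PBS and 2.54 ± 0.062 times with nanoparticles, with ranges of 1.16 to 1.22 and 2.48 to 2.60, a ratio formed after the values had been seen and so given without a test. The genes beside Nectin2 were called in opposite directions: Tomm40, 1.206 kb away, had a log2 fold change of 0.75 (adjusted p = 6.87e-09, limma) and Bcam one of -0.34 (adjusted p = 0.000109, limma). Those beside Pvr were under the level tested. Summed, Pvr and Nectin2 came to 56.7 ± 1.26 FPKM with PBS and 88.0 ± 2.38 FPKM with nanoparticles.

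Lgals9, the galectin-9 gene (ENSMUSG00000001123, chr11:78962974-78984946, minus strand), was the most abundant member in every library. Levels were 66.1, 66.3 and 66.7 FPKM with PBS and 183, 174 and 177 FPKM with nanoparticles, groups that lay far apart. Lgals9 rose by 1.41 on the log2 scale (SE 0.027, 95% CI 1.35 to 1.47, adjusted p = 9.7e-11, limma), a 2.68-fold ratio of means. Its share of the summed FPKM of all 10 members was 44.9% ± 0.592 with PBS and 62.2% ± 1.07 with nanoparticles, while that sum was 148 ± 2.43 and 286 ± 4.84 FPKM (SD, n = 3 each). The adjacent Nos2, inducible nitric oxide synthase, lies 2.72 kb from it, the genes meeting at their ends, and went from 4.18 to 11.7 FPKM, a log2 fold change of 1.29 (limma, adjusted p = 3.93e-09), whereas Ksr1 on the other flank had a log2 fold change of -0.34 (adjusted p = 0.000121, limma).

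Ceacam1 (ENSMUSG00000074272, chr7:25461707-25477603, minus strand) was low in all libraries, with 0.121, 0.151 and 0.129 FPKM under PBS and 0.605, 0.400 and 0.239 FPKM with nanoparticles. The nanoparticle libraries were all higher and spread widely (0.415 ± 0.183 against 0.134 ± 0.0156 FPKM; SD, n = 3 each). Its close paralogue Ceacam2 averaged 0.201 ± 0.0733 FPKM under PBS and 0.274 ± 0.0326 FPKM with nanoparticles, and no source used here says how reads common to both genes were counted.

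The enzyme genes differed in level and in direction. Nt5e, which encodes CD73 (ENSMUSG00000032420, chr9:88327197-88372092, plus strand), was at 8.72, 8.64 and 9.16 FPKM with PBS, against 3.74, 3.84 and 3.35 FPKM with nanoparticles. All nanoparticle libraries were below all PBS libraries, and Nt5e fell by 1.08 on the log2 scale (SE 0.059, 95% CI -1.22 to -0.95, adjusted p = 7.33e-08, limma). Snx14, a sorting nexin gene 4.658 kb beyond it, also fell, from 23.2 to 10.7 FPKM, a log2 fold change of -1.04 (limma, adjusted p = 8.67e-09). Ido1 (ENSMUSG00000031551, chr8:24584136-24597009, minus strand) was listed at 0 in each PBS library and at 0.339, 0.549 and 0.270 FPKM with nanoparticles.

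**Figure D2:**
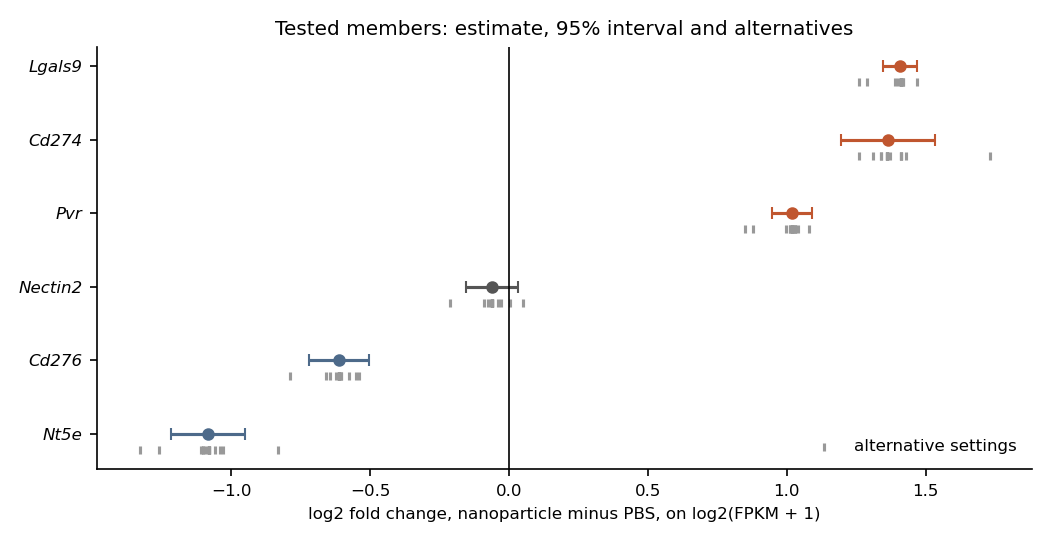
Log2 fold change of the 6 tested members with 95% confidence intervals, nanoparticle minus PBS, on log2(FPKM + 1), coloured by call, and grey ticks for the 15 alternative settings, 1 of which uses a pseudocount of 0.1. Lgals9, Cd274 and Pvr lie above 0, Nt5e and Cd276 below it, and the interval of Nectin2 spans 0.

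The order of levels changed at 1 place among the tested members. With PBS it ran Lgals9, Pvr, Nectin2, Cd276, Nt5e, Cd274, with no overlap between neighbours. With nanoparticles Cd274 stood above Nt5e: the ratio of Cd274 to Nt5e was 0.203 ± 0.022 with PBS and 1.70 ± 0.153 with nanoparticles, ranging from 0.186 to 0.228 and from 1.53 to 1.83. The level of Lgals9 was 4.71 ± 0.216 times that of Cd276 with PBS and 20.01 ± 0.794 times with nanoparticles. These ratios, too, are descriptions. Below them, Ceacam1, Ido1 and Pdcd1lg2 had overlapping ranges with nanoparticles, and Vtcn1 lay under all 3.

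For the 4 members under 1 FPKM in every library (Pdcd1lg2, Vtcn1, Ceacam1 and Ido1), all nanoparticle libraries were above all PBS libraries. The same held for 49.1% of the 8996 genes that were under 1 FPKM in every library and above 0 in at least 1, and the number of genes above 0 was itself higher with nanoparticles, as given above. Whether that wider detection has a part in these 4 values was not tested. In a fit with no filter on low values, all 4 were called higher, against 44.3% of those 8996 genes. The log2 fold changes were 0.30 for Pdcd1lg2 and 0.31 for Ceacam1 (adjusted p = 0.000218 and 0.0193, limma). Those of Vtcn1 (0.22) and Ido1 (0.47) are given without a p. Both genes were at 0 in every PBS library and entered that fit through the nanoparticle libraries alone, which fixes their direction. Ido1 and Vtcn1 were 2 of 7328 genes at 0 in every PBS library, of which 2632 (35.9%) were above 0 in every nanoparticle library. The median of those 2632 was 0.101 FPKM with nanoparticles, and 76 of them had a higher mean than Ido1 (0.386 FPKM) and 688 a higher mean than Vtcn1 (0.162 FPKM).

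**Figure D3:**
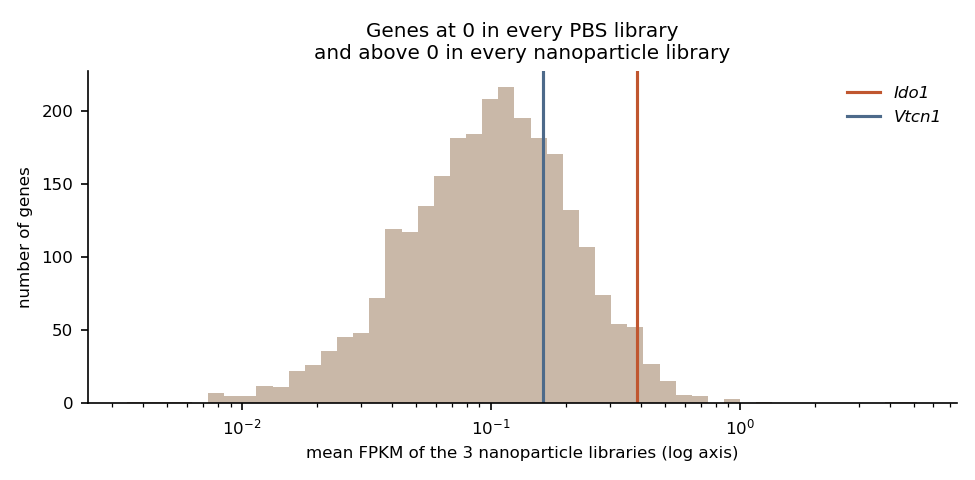
Mean nanoparticle FPKM of the 2632 genes listed at 0 in every PBS library and above 0 in every nanoparticle library, as a histogram on a log axis, with Ido1 and Vtcn1 marked by lines. Both lie above the median of 0.101 FPKM, with 76 genes above Ido1 and 688 above Vtcn1.

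Across tested genes the fold change varied with the length of the gene. In 4 equal classes of genomic span, with upper limits of 10.191, 23.196, 51.663 and 2960.9 kb, the median log2 fold change was 0.34, 0.20, -0.09 and -0.76, and 60.1%, 53.6%, 37.4% and 10.4% of genes were called higher. The 3 members called higher have spans of 17.583 kb (Pvr), 20.641 kb (Cd274) and 21.973 kb (Lgals9), in the second class. Both called lower, Cd276 (31.14 kb) and Nt5e (44.896 kb), and Nectin2 (33.84 kb) are in the third. With the trend over span and exonic length removed, the 5 calls stood, at log2 fold changes of 1.29 for Lgals9, 1.26 for Cd274, 0.85 for Pvr, -0.54 for Cd276 and -0.83 for Nt5e, and Nectin2 was at 0.05.

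By Euclidean distance between centred log2(FPKM + 1) profiles over the 6 libraries, neighbours were sought for Lgals9 and Nt5e, the members with the largest rise and fall on that scale (by ratio of means Cd274 rose more than Lgals9). The tested genes most like Lgals9 were B2m, the light chain of MHC class I (distance 0.032, log2 fold change 1.42), Hsp90aa1, a chaperone (0.044 and 1.42), Brd2 (0.062 and 1.41), Procr (0.063 and 1.39) and Arpc5l (0.063 and 1.45). Those most like Nt5e were Zcchc24 (distance 0.066, log2 fold change -1.10), Hk1, a hexokinase (0.069 and -1.06), Bcr (0.070 and -1.12), Ttyh3 (0.074 and -1.12) and Zcchc14 (0.076 and -1.07). The measure takes in the size of the difference between the groups as well as its pattern. With the span trend removed, the log2 fold change was 0.777 for B2m against 1.29 for Lgals9. Hsp90aa1 (1.15), Brd2 (1.12) and Arpc5l (1.14) then lay nearer to Lgals9 than B2m did, though further from it than before the trend was removed. Of the genes most like Nt5e, Hk1 was then at -0.318 and Bcr at -0.314, against -0.83 for Nt5e.

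Relatives of the B7 and nectin members were mostly under 1 FPKM. Among 4 further B7 genes, 2 were tested: Vsir, which encodes the inhibitory ligand VISTA, fell from 21.2 ± 0.369 to 1.91 ± 0.032 FPKM, a log2 fold change of -2.93 (limma, adjusted p = 3.7e-11), and Icosl, the ligand of ICOS, rose from 1.62 ± 0.0796 to 2.24 ± 0.0563 FPKM (0.31, adjusted p = 0.00139). Icosl was not called with the span trend removed (adjusted p = 0.289). Cd80 and Cd86, the ligands of CD28 and CTLA-4, were under 1 FPKM in every library, at means of 0.00708 and 0 with PBS and 0.144 and 0.242 FPKM with nanoparticles. Of 8 further nectin family genes 3 were tested and 1 was called: Nectin3 fell from 8.83 ± 0.402 to 4.88 ± 0.719 FPKM (-0.75, adjusted p = 2.63e-05, limma), but its log2 fold change was 0.0356 with the span trend removed. Nectin1 (-0.10, or 0.314 with that trend removed) and Cadm4 (0.11) were not called, and Cadm1 was under 1 FPKM in all libraries.

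Galectins other than Lgals9 were called higher in 3 cases, lower in 1 and not called in 1 of 5 tested, with a median log2 fold change of 0.46. Among the higher calls, Lgals2 passed the filter on low values through the nanoparticle libraries alone, which fixes its direction. The median of 0.46 is the value of Lgals2 itself, so it does not describe the other galectins. Lgals3 rose from 351 ± 6.99 to 498 ± 7.90 FPKM, a log2 fold change of 0.50 (limma, adjusted p = 4.51e-08; 0.295 with the span trend removed). Lgals1, far more abundant than Lgals9, rose from 2369 ± 110.1 to 3859 ± 195 FPKM (0.70, adjusted p = 3.44e-07), and was not called with the span trend removed (0.0781). Lgals7 fell from 15.5 ± 1.62 to 11.3 ± 0.847 FPKM (-0.42, adjusted p = 0.000677, limma; -0.994 with that trend removed). In the CEACAM family, 2 of 8 further genes were tested: Ceacam16 rose from 1.62 ± 0.148 to 2.97 ± 0.133 FPKM (0.60, adjusted p = 2.37e-05, limma), and Ceacam10 was not called (-0.06). With the span trend removed Ceacam16 was at 0.182 (adjusted p = 0.0449, limma), and Ceacam10 was called lower (-0.525, adjusted p = 0.00161, limma).

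Around Nt5e, 9 of 18 genes of extracellular ATP and adenosine handling were tested, and 6 were called higher, 2 lower and 1 not called (median log2 fold change 0.64). Cd38, which breaks down NAD outside the cell, averaged 6.82 ± 0.187 FPKM under PBS and 0.533 ± 0.0869 FPKM with nanoparticles (log2 fold change -2.35); under 1 FPKM in every nanoparticle library, it passed the filter through the PBS libraries alone, so no p is given. Adenosine kinase (Adk) fell from 37.9 ± 0.908 to 9.37 ± 0.579 FPKM (-1.91, adjusted p = 4.29e-10; -0.383 with the span trend removed). Adenosine deaminase (Ada), which breaks adenosine down, rose from 5.18 ± 0.449 to 11.1 ± 0.186 FPKM (0.98, adjusted p = 1.81e-07), and purine nucleoside phosphorylase (Pnp) from 32.2 ± 1.99 to 70.8 ± 2.44 FPKM (1.12, adjusted p = 1.23e-08). The adenosine receptor Adora2b was at 0.825 ± 0.121 and 1.27 ± 0.199 FPKM; it was under 1 FPKM in every PBS library and entered through the nanoparticle libraries alone. Entpd1, which encodes CD39 and supplies the substrate of CD73, was at 0 in every PBS library and averaged 0.140 ± 0.148 FPKM with nanoparticles, and Adora2a was under 1 FPKM throughout.

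Around Ido1, 10 of 21 tryptophan and kynurenine genes were tested, with 2 called higher, 6 lower and 2 not called (median -0.87). Slc7a5 and Slc3a2, the chains of the large neutral amino acid transporter that imports tryptophan, fell from 203 ± 2.98 to 76.2 ± 1.03 FPKM, a log2 fold change of -1.40 (limma, adjusted p = 6.31e-11) and from 221 ± 5.05 to 94.8 ± 1.77 FPKM (-1.21, adjusted p = 2.53e-10, limma). Cyp1b1, a target of the aryl hydrocarbon receptor, which kynurenine can bind, fell from 64.7 ± 0.569 to 29.3 ± 0.365 FPKM (-1.11, adjusted p = 4.48e-10). Of the other listed genes of that receptor's pathway, named after their values were seen, Ahr (-0.78) and Arnt (-1.33) were called lower. Tiparp was not called (0.09, adjusted p = 0.0613, limma), and Cyp1a1 and Ahrr were under 1 FPKM in every library. Other genes of tryptophan breakdown, Ido2, Tdo2 and Il4i1, were under 1 FPKM in every library.

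Transcription regulators of PD-L1 were all 20 tested, with 7 called higher, 12 lower and 1 not called (median -0.32). Stat2, which carries type I interferon signals, rose from 8.996 ± 0.137 to 65.5 ± 0.842 FPKM (2.73 on the log2 scale, adjusted p = 8.43e-12, limma). Irf1 rose from 32.7 ± 0.766 to 56.8 ± 1.63 FPKM (0.78, adjusted p = 1.42e-08; 0.435 with the span trend removed). Jak2, a kinase of the interferon-gamma receptor, fell from 48.7 ± 0.439 to 15.2 ± 0.741 FPKM (-1.61, adjusted p = 4.14e-10). Jun, an AP-1 subunit, rose from 14.2 ± 0.632 to 160 ± 4.48 FPKM (3.40), and Myc from 47.3 ± 2.16 to 216 ± 5.33 FPKM (2.17).

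Of 20 genes acting on PD-L1 protein stability or glycosylation, 10 were called higher and 10 lower (median -0.02), and the higher count was 6 on TPM and 4 with the span trend removed. Cmtm6, which keeps PD-L1 at the cell surface, rose from 25.9 ± 0.780 to 36.0 ± 1.78 FPKM, a log2 fold change of 0.46 (limma, adjusted p = 4.13e-06). Cul3, the scaffold of a ubiquitin ligase that acts on PD-L1, fell from 43.5 ± 1.26 to 12.5 ± 0.219 FPKM (-1.72), and Gsk3b, a kinase that marks PD-L1 for breakdown, from 10.7 ± 0.564 to 2.04 ± 0.0333 FPKM (-1.94; -0.978 with the span trend removed). Usp9x, a deubiquitinase, fell from 18.9 ± 0.584 to 4.68 ± 0.195 FPKM (-1.81; -1.05 with that trend removed). PD-L1 protein was not measured.

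**Figure D4:**
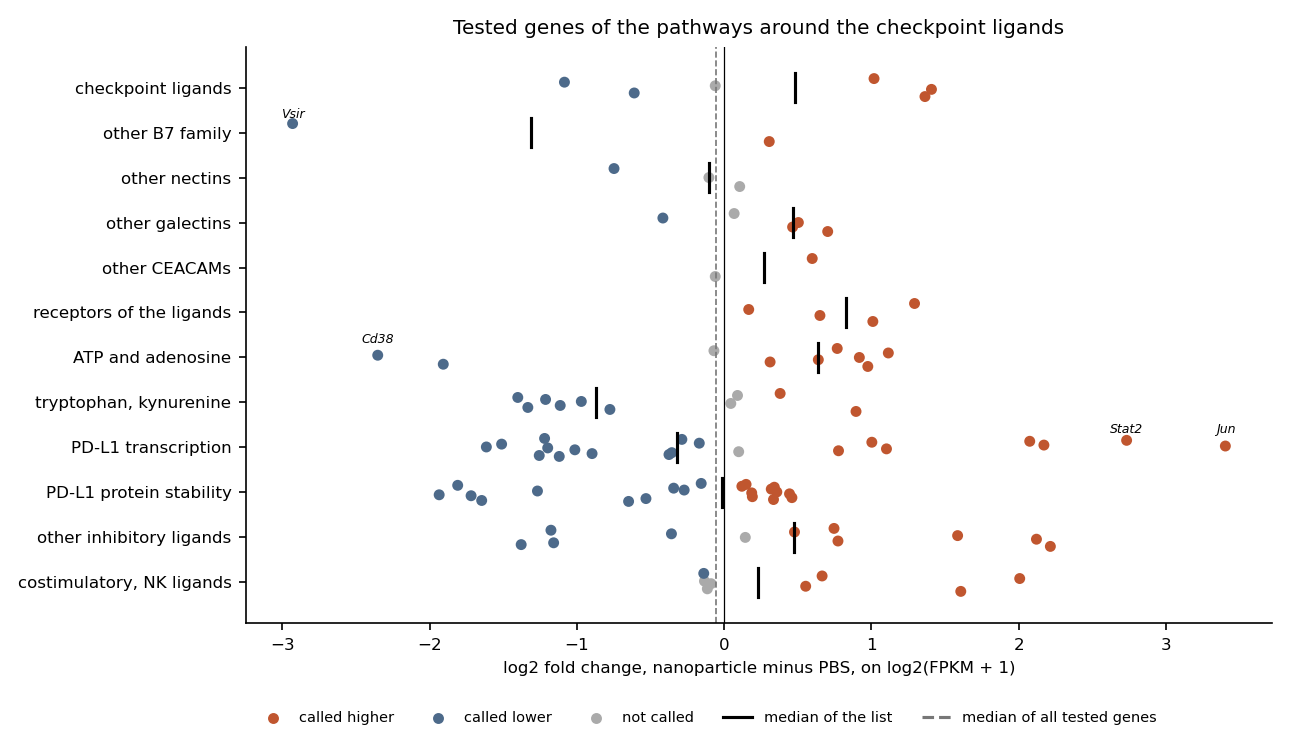
Log2 fold change of each tested gene of the checkpoint ligands and of 11 lists around them, nanoparticle minus PBS, on log2(FPKM + 1), coloured by call, with each list's median as a bar and the median of all tested genes (-0.06) as a dashed line. The ligands spread to both sides of 0, as do most lists.

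Receptors of the ligands are mostly genes of lymphocytes, and 8 of 12 were under 1 FPKM in every library, among them Pdcd1 (PD-1), Cd226, Cd96 and Pvrig. The other 4 were called higher (median 0.83). Tigit, the receptor of Pvr and Nectin2, went from 11.6 ± 0.615 to 30.0 ± 1.49 FPKM, a log2 fold change of 1.29 (limma, adjusted p = 7.63e-09; 0.842 with the span trend removed). Havcr2, which encodes TIM-3, went from 0.850 ± 0.133 to 2.72 ± 0.114 FPKM (1.01). Like Adora2b, it was under 1 FPKM in every PBS library. Havcr2 thus entered the test through the nanoparticle libraries alone, which fixes its direction among the 4, and the median of 0.83 depends on its value. P4hb, a protein disulphide isomerase that galectin-9 can bind, went from 277 ± 2.11 to 435 ± 9.85 FPKM (0.65, adjusted p = 7.09e-09, limma; 0.388 with that trend removed). Beside these, a list of 15 lymphocyte markers summed to 1.28 to 1.45 FPKM with PBS and 3.11 to 3.48 FPKM with nanoparticles. Cd3d, Cd3g, Cd4 and Cd8a and 6 others of them were at 0 in every PBS library, Klrb1c was at 0 throughout, and Cd3e averaged 0.0461 and 0.0951 FPKM. Lck, which rose from means of 1.08 to 1.77 FPKM (0.41 on the log2 scale, adjusted p = 0.00145, limma), was the 1 marker tested.

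Macrophages and dendritic cells also carry PD-L1, PD-L2, galectin-9 and IDO1. A list of 19 of their markers summed to 24.8 to 28.9 FPKM with PBS and 46.0 to 52.5 FPKM with nanoparticles. Of its 5 tested genes, 3 were called higher and 2 lower. Among the higher calls, Csf1r and Mpeg1 passed the filter through the nanoparticle libraries alone, which fixes their direction. Cd68, a lysosomal protein not limited to macrophages, was the most abundant of them by mean in both groups and rose from 12.2 ± 1.82 to 35.3 ± 1.56 FPKM, a log2 fold change of 1.47 (limma, adjusted p = 8.52e-07), while Csf1r and Mpeg1 were under 1 FPKM with PBS and averaged 1.45 ± 0.360 and 1.77 ± 0.104 FPKM with nanoparticles. The lower calls, both named after their values were seen, were Cd14 and Zbtb46. Cd14 fell from means of 11.9 to 7.13 FPKM (-0.67, adjusted p = 0.000126, limma). Zbtb46 went from means of 1.34 to 0.798 FPKM (-0.38). It met the filter through the PBS libraries, with nanoparticle libraries at 0.621 to 1.04 FPKM, so no p is given. Ptprc (CD45) and 6 others were at 0 in every PBS library, Ptprc averaged 0.527 ± 0.121 FPKM with nanoparticles, and Fcer1g was at 0 in all 6. The part of these markers in the ligand values was not tested. Fibroblast and endothelial markers (13 genes) summed to 41.3 to 41.4 FPKM with PBS and 10.1 to 12.3 FPKM with nanoparticles. The 3 tested, Pdgfra, Pdgfrb and Cdh5, all fell (log2 fold changes -1.90, -1.74 and -1.89). The other 10, under 1 FPKM in every library, were all higher in every nanoparticle library than in every PBS library. That held for 49.1% of the 8996 genes under 1 FPKM described above.

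Other ligands by which tumour cells escape or engage immunity were mixed. In a list of 20 further inhibitory ligands 11 were tested, with 6 called higher, 4 lower and 1 not called (median 0.48). Among the lower calls, Tnfrsf14, passed the filter through the PBS libraries alone. Cd47, the signal to macrophages against engulfment, fell from 86.4 ± 9.93 to 32.7 ± 4.66 FPKM, a log2 fold change of -1.38 (limma, adjusted p = 5.33e-05; -0.634 with the span trend removed). Cd24a, a ligand of Siglec receptors, rose from 11.1 ± 0.384 to 55.1 ± 0.626 FPKM (2.22, adjusted p = 4.24e-11), the non-classical MHC gene H2-T24 from 5.01 ± 0.372 to 25.1 ± 0.686 FPKM (2.12), and Lgals3bp, a galectin-binding protein, from 62.8 ± 3.98 to 190 ± 4.20 FPKM (1.59). Among costimulatory and NK-activating ligands, 8 of 14 were tested, with 4 called higher, 1 lower and 3 not called (median 0.23). The lower call was the NK-activating ligand Ulbp1, from means of 29.6 to 26.8 FPKM (-0.14, adjusted p = 0.00547, limma). Also NK-activating, Raet1d (-0.09), Raet1e (-0.13) and H60b (-0.11) were the 3 not called. Ulbp1 and these 3 were named after their values were seen. Cd40 rose from 1.93 ± 0.283 to 7.90 ± 0.333 FPKM (1.61, adjusted p = 3.55e-08, limma), and Tnfsf9, the 4-1BB ligand, from 17.5 ± 0.802 to 28.4 ± 1.07 FPKM (0.67; 0.183 with the span trend removed). Tnfsf4, the OX40 ligand, was under 1 FPKM in every PBS library and stood at 3.61 ± 0.501 FPKM with nanoparticles. It passed the filter through the nanoparticle libraries alone, which fixes its direction among the 4 called higher.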

How the data were processed

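RNA of 6 samples of 4T1 cells (3 nanoparticle, 3 PBS) was extracted with TRIzol and sequenced from mRNA-enriched libraries, per the labels' protocols. The authors deposited 1 table of FPKM values, a unit absent from its header and read from the values. STAR, featureCounts and the builds GRCm38 and mm10 are named in the submitters' processing notes; for versions, roles, annotation and strand: not given in the sources used here. Antisense or overlapping genes absent from the table are annotated across Cd274, Pdcd1lg2, Cd276, Pvr, Nectin2 and Ceacam1, and without strand their reads cannot be told apart. Of 22806 features, 701 without a gene identifier were left out. Ratios of low values showed no step of 1 read (at most 1.99% in any 1% bin), so depth is unknown.

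Genes with at least 1 FPKM in at least 3 of 6 libraries were fitted with limma 3.58.1 (R 4.3.3; trend and robust) on log2(FPKM + 1) without a replicate block, two-sided, with Benjamini-Hochberg adjustment, and called at an adjusted p under 0.05. The alternatives were a pseudocount of 0.1, no filter or a filter at 5 FPKM, TPM or median-of-ratios scaling, a replicate block, each library left out, the trend over genomic span and exonic length removed, an adjusted p under 0.01 and a test against 1.5-fold. Named are all members, for each list the 3 tested genes with the smallest adjusted p and genes listed for their tie to a member, and the 5 genes nearest the members with the largest rise and fall on log2(FPKM + 1); 1 gene this rule names is not reported here. Flanking genes and a few others were added after their values were seen. The members and lists were chosen with earlier results of these data known. Lymphocyte, macrophage, fibroblast, endothelial and epithelial markers served to check the cells. Of the gene identifiers, 99.5% matched GENCODE M21. Python 3.11.15 was used for summaries.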

Additional observations from a re-analysis of the deposited data

How the results depend on the processing

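The directions of Lgals9, Cd274, Pvr, Nt5e and Cd276 held in all 15 alternatives, with log2 fold changes of 1.26 to 1.47, 1.26 to 1.73, 0.85 to 1.08, -1.33 to -0.83 and -0.788 to -0.539. Nectin2 ranged from -0.213, called on TPM, to 0.0491. Members called higher numbered 7 with no filter on low values, since 4 more genes were then tested. Of these 4, Vtcn1 and Ido1, at 0 in every PBS library, could only come out higher. Members called lower numbered 1 against a change of 1.5-fold, where Cd276 was not called. That test called 1853 genes higher and 2341 lower, against 4395 and 4996 for the test against no change. With no filter 8445 genes were called higher and 5227 lower. Removing the span trend turned Krt18 (-0.083, adjusted p = 0.0205, limma), Nectin1 (0.314, adjusted p = 0.0078, limma) and Nectin3 (0.0356, adjusted p = 0.708, limma). The cause was not tested. Higher or lower counts of the lists around the members were less stable than those of the members. With the span trend removed, 9 such counts lay outside a 1.5-fold range of the count given above. On TPM 2 did, and with median-of-ratios scaling 1. Leaving out 1 library at a time ended no member's call, and Cd274 ranged from 1.31 to 1.41. With the replicate number as a block, 3 members were again called higher and 2 lower (Nectin2 adjusted p = 0.236), with 4389 and 4982 genes in all. The labels share only numbers: deviations of same-numbered samples correlated at -0.0141, -0.0428 and 0.0411. Without counts, no limit of detection can be given for Vtcn1 and Ido1 at 0.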
